A study of Canis lupus familiaris with 10 samples.

Results

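The collagen genes described here, in canine visceral adipose tissue (VAT), are COL1A1, COL1A2, COL3A1, COL6A1, COL6A3, COL9A2, COL12A1, COL14A1, COL8A1 and COL23A1. They are 10 of the 19856 genes in the count tables, and all 10 had enough reads to be tested. They were chosen by the Post-ACTH against Pre-ACTH contrast of these same samples: each belongs to the study's table of changed genes, which names 12 collagens. The other 2, COL7A1 and COL4A5, are given only for comparison. The choice used the contrast itself, so the changes of the 10 chains are a description and support nothing.

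The animals were 5 adult Beagle dogs, 3 male and 2 female. VAT was taken from each at laparotomy at the outset (Pre-ACTH) and a further time following 25 weeks of tetracosactide, a synthetic ACTH analog that drives the adrenal cortex to secrete cortisol (Post-ACTH). The daily dose was 1.3 to 1.95 μg/kg at the start and 6 to 10 μg/kg at the end, and was delivered by subcutaneous osmotic pumps that were changed at intervals of 4 weeks. Each dog was its own control and no untreated dogs are among the samples, so treatment cannot be told apart from time and from a previous laparotomy. The 10 libraries form 5 pairs, here called dogs 1 to 5 by ascending animal ID.

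The libraries held 8728330 to 14867529 counted reads, the Pre-ACTH sample of dog 3 being the smallest. Values are CPM, the count scaled to a common library size after TMM. TMM is edgeR's correction for differences in RNA composition. With the dog as a block, edgeR's quasi-likelihood test called 268 of 13577 tested genes at FDR under 0.01 (1.97%), with 1.22% of the tested genes called as lower and 0.751% as higher in Post-ACTH. LIPE, the hormone-sensitive lipase of fat cells, was present in every library, and the other 9 genes of the adipocyte list carry no symbol here and were not analysed.

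Collagens are triple helices wound from 3 chains with glycine at regular positions. Fibrillar collagens I and III form the load-bearing fibrils of connective tissue, and in fat they surround the adipocytes and run through the septa. Collagens IX, XII and XIV sit on the surface of such fibrils, collagen VI builds beaded microfibrils close to the cell surface, collagen VIII forms short-chain networks, and collagen XXIII is a transmembrane chain. In adipose tissue, fibroblasts and progenitor cells are the main source of the interstitial chains.

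Of the 10 chains, 9 were lower and 1, COL12A1, was higher in Post-ACTH. At FDR under 0.01, which 1.97% of the tested genes passed, edgeR called 5 of the 10, all lower: COL1A2, COL3A1, COL6A3, COL14A1 and COL23A1. COL6A3 lay just inside that threshold (adjusted p = 0.00924), and COL1A1 (0.0105) and COL6A1 (0.0112) just outside. At FDR under 0.05, which 11.1% of the tested genes passed, 9 of the 10 were called, and with DESeq2, the study's tool, 10 of 10 were (8.69% of the tested genes). The study's table came from DESeq2 on these same samples, so the DESeq2 count was largely fixed by the choice of the chains. The chains nearest to the threshold of that fit were COL8A1 (adjusted p = 0.00538) and COL9A2 (0.00362). Collagens just outside the study's table carry no symbol here. The median log2 fold change was -1.47 over the 10 chains and -0.00 over all tested genes.

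The count of edgeR calls moved with the dogs included. Without dog 2 no chain was called, without dog 3 none was, and without dog 5 only 1 was, whereas 5 were called without dog 1 and 7 without dog 4. All 10 chains had an unadjusted p under 0.05 in each of these fits. Over all tested genes the calls numbered 1, 12 and 23 without dogs 2, 3 and 5, and 318 and 117 without dogs 1 and 4.

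**Figure D1:**
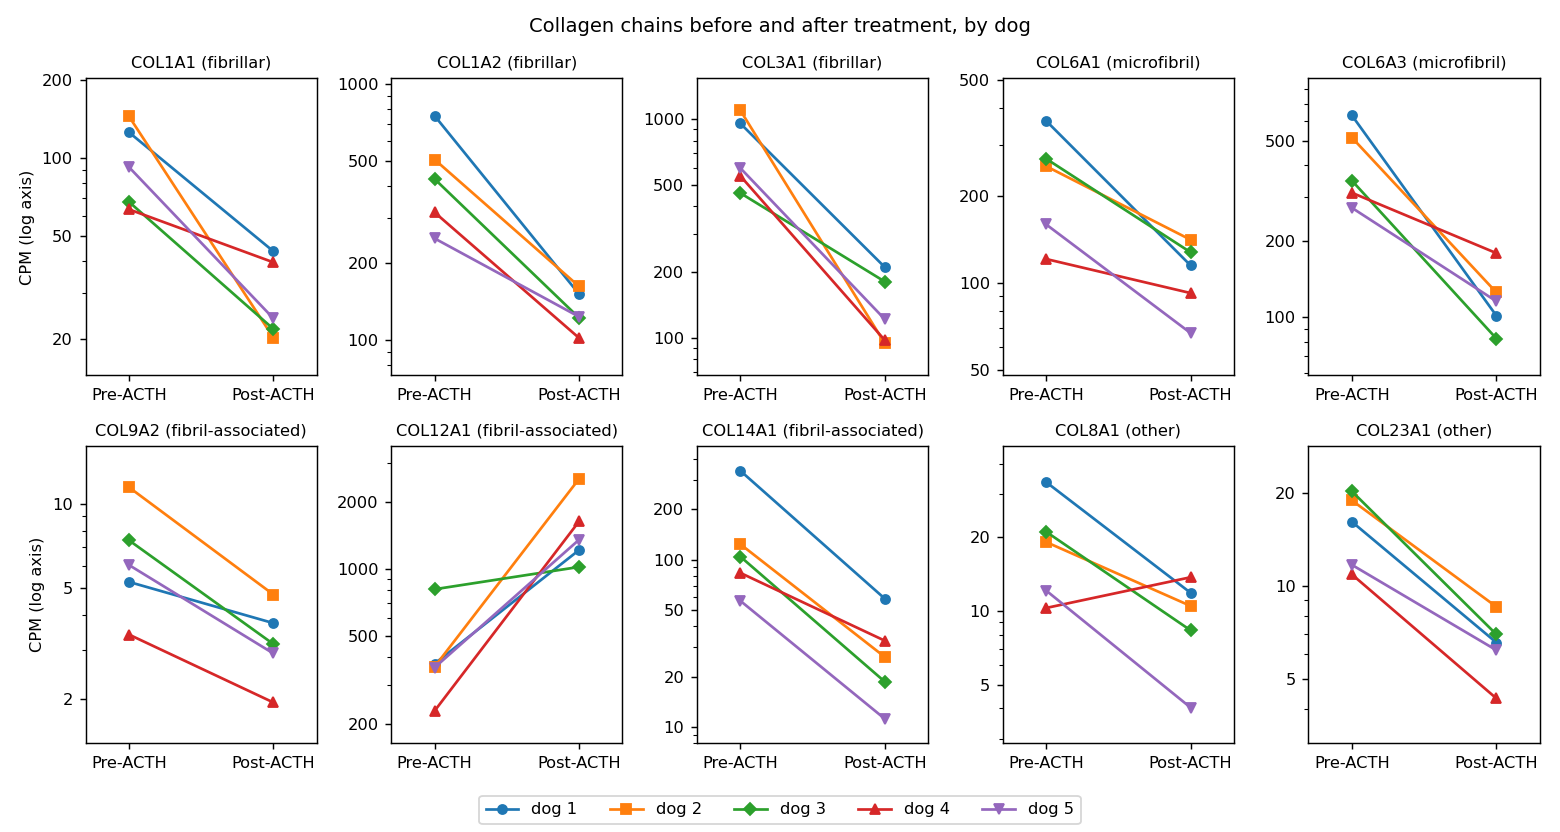
CPM of each of the 10 collagen chains on a log axis, 1 panel per chain, with a line for each of the 5 dogs from its Pre-ACTH to its Post-ACTH sample. All lines fall for 8 chains, COL8A1 is higher in Post-ACTH in dog 4 alone, and COL12A1 is higher in Post-ACTH in all 5 dogs.

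The 3 fibrillar chains were lower in all 5 dogs, and their Pre-ACTH and Post-ACTH values did not overlap. COL3A1 (ENSCAFG00000014812) encodes the only chain of collagen III, a fibril of pliable tissues. In Pre-ACTH it stood at 958, 1099.7, 460.3, 551 and 599 CPM in dogs 1 to 5, and in Post-ACTH at 211, 94.4, 181, 97.6 and 122 CPM. The 2 dogs with the highest Pre-ACTH values were dogs 1 and 2, and dog 2 had the lowest Post-ACTH value. COL3A1 fell from 734 ± 279 to 141 ± 52.2 CPM (SD, n = 5 dogs), a log2 fold change of -2.37 (SE 0.28), which is 5.17-fold lower.

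COL1A2 (ENSCAFG00000002069), the alpha-2 chain of collagen I, was at 752, 507, 426, 315 and 249 CPM in Pre-ACTH and at 151, 162, 122, 102 and 123 CPM in Post-ACTH. Its Pre-ACTH values spanned a 3.01-fold range and its Post-ACTH values a 1.59-fold range. The log2 fold change was -1.68 (SE 0.17). COL1A1 (ENSCAFG00000017018), the alpha-1 chain of the same molecule, was at 126, 145, 67.8, 63.4 and 92.5 CPM in Pre-ACTH and at 43.7, 20.2, 21.9, 39.6 and 24.0 CPM in Post-ACTH. Its log2 fold change of -1.72 (SE 0.27) was close to that of COL1A2, but it varied more between dogs. In single dogs the log2 ratio of COL1A1 ran from -2.83 in dog 2 to -0.68 in dog 4 (SD 0.78), and that of COL1A2 from -2.31 in dog 1 to -1.02 in dog 5 (SD 0.46).

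COL6A1 (ENSCAFG00000011911) and COL6A3 (ENSCAFG00000012226) encode chains of collagen VI, and the C-terminal fragment of the alpha-3 chain is known as endotrophin, an adipokine. COL6A3 was at 629.99, 515, 348, 311 and 271 CPM in Pre-ACTH and at 101, 125, 82.3, 179 and 116 CPM in Post-ACTH, so the groups did not overlap. It fell by 1.76 on the log2 scale (SE 0.26), with the smallest change in dog 4 (-0.79) and the largest in dog 1 (-2.63). COL6A1 was at 362, 253, 268, 121 and 159 CPM in Pre-ACTH and at 115, 141, 127, 92.2 and 67.1 CPM in Post-ACTH. All 5 dogs were lower, but the Pre-ACTH value of dog 4 was below the Post-ACTH values of dogs 2 and 3. The log2 fold change of COL6A1 was -1.04 (SE 0.17). COL6A2, the partner chain of both, carries no symbol here and was not analysed.

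The fibril-associated chains did not move together. COL14A1 (ENSCAFG00000000934), a chain that binds the surface of collagen I fibrils, was at 341, 124, 104, 83.5 and 56.8 CPM in Pre-ACTH and at 58.5, 26.2, 18.7, 32.8 and 11.2 CPM in Post-ACTH. Dog 1 was the highest and dog 5 the lowest both before and after, and the groups overlapped only because the Post-ACTH value of dog 1 exceeded the Pre-ACTH value of dog 5. COL14A1 fell by 2.19 on the log2 scale (SE 0.18), which is 4.57-fold lower. Dog 4, with a log2 ratio of -1.34, lay apart from the other dogs, whose log2 ratios were between -2.54 and -2.23.

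COL12A1 (ENSCAFG00000002702), a chain of the same fibril-associated class that bridges fibrils to the surrounding matrix, was at 375, 363, 810.2, 229.6 and 359.8 CPM in Pre-ACTH. In Post-ACTH it was at 1217, 2547, 1021, 1638 and 1355 CPM, above every Pre-ACTH value. The log2 fold change was 1.94 (SE 0.36), a 3.83-fold higher level, which did not pass FDR under 0.01 in edgeR (adjusted p = 0.0177) and did with DESeq2. The log2 ratio was 0.33 in dog 3, which had the highest Pre-ACTH and the lowest Post-ACTH value, and between 1.70 and 2.83 in the others. Without dog 3 the log2 fold change was 2.32. COL9A2 (ENSCAFG00000002997), a chain of collagen IX known best from cartilage, was read at 38 to 153 reads per Pre-ACTH library and 27 to 64 per Post-ACTH library, so its values are less precise. It was at 5.25, 11.4, 7.39, 3.40 and 6.03 CPM in Pre-ACTH and at 3.73, 4.73, 3.14, 1.94 and 2.91 CPM in Post-ACTH. Dog 2 was the highest and dog 4 the lowest at both times, and the groups overlapped. It was lower in all 5 dogs, with a log2 fold change of -0.98 (SE 0.18).

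COL23A1 (ENSCAFG00000000246), the transmembrane chain, was at 16.2, 19.0, 20.3, 10.9 and 11.7 CPM in Pre-ACTH and at 6.56, 8.57, 6.97, 4.32 and 6.19 CPM in Post-ACTH. No Post-ACTH value reached the lowest Pre-ACTH value. COL23A1 fell by 1.25 on the log2 scale (SE 0.13), and its log2 ratios had the smallest spread of the 10 chains, from -1.52 to -0.90 in single dogs (SD 0.23). COL8A1 (ENSCAFG00000031675), a short-chain collagen of vessel walls and other tissues, was at 33.7, 19.15, 21.1, 10.3 and 12.1 CPM in Pre-ACTH and at 11.9, 10.5, 8.34, 13.7 and 4.03 CPM in Post-ACTH. It was lower in 4 dogs and higher in dog 4, where the log2 ratio was 0.41. Its log2 fold change of -0.98 (SE 0.28) was -1.32 without dog 4.

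**Figure D2:**
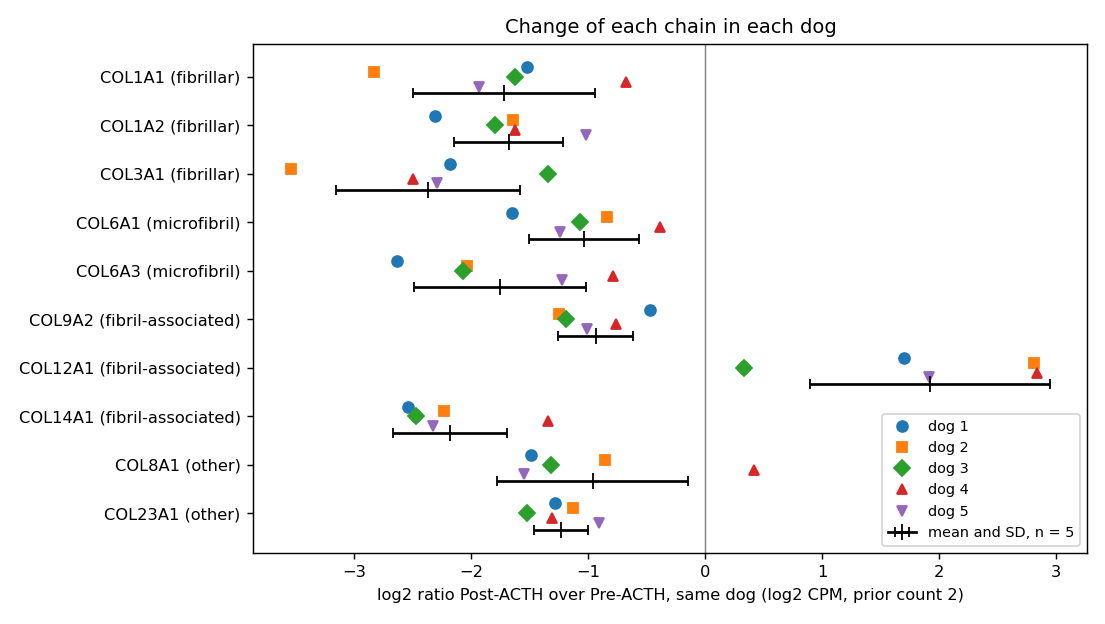
Log2 ratio of Post-ACTH over Pre-ACTH CPM for each chain in each dog (symbols), with the mean and SD over the 5 dogs below them. Dog 4 has the smallest fall, or the 1 value above 0 for COL8A1, in 5 of the 9 chains with a negative mean, and dog 3 the smallest ratio of COL12A1.

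All 5 dogs moved the same way in 9 of the 10 chains, against 27% of the tested genes, and the groups did not overlap in 6, against 9.04% of the tested genes. The 9 chains with lower levels did not change equally in every dog. Their median log2 ratio was -1.66 in dog 1, -1.65 in dog 2, -1.52 in dog 3, -0.79 in dog 4 and -1.24 in dog 5. Dog 4 had the smallest change for 5 of these 9 chains and dog 1 the largest for 4. Before treatment, dog 4 had the lowest value of 6 of the 10 chains and dog 1 the highest of 5. The log2 ratios are taken from these same Pre-ACTH values, so the ranks before treatment and the ranks of the changes are not independent. The SD of log2 CPM between dogs was larger in Pre-ACTH for 9 of the 10 chains, the exception being COL8A1. The difference was slight for COL1A1 (0.528 against 0.511) and COL3A1 (0.539 against 0.523), and the share over all tested genes is not given here. Across the chains, this SD was 0.40 to 0.96 before treatment and 0.27 to 0.89 after it.

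The sum of the 10 chains changed less than its parts. Together they took 0.257% ± 0.083 of the counted reads in Pre-ACTH and 0.211% ± 0.056 in Post-ACTH (SD, n = 5), a difference smaller than the SD between Pre-ACTH samples, and the groups overlapped. In dogs 1 to 5 the share was 0.362%, 0.308%, 0.267%, 0.166% and 0.182% in Pre-ACTH. In Post-ACTH it was 0.188%, 0.305%, 0.160%, 0.217% and 0.186%, so it was lower in dogs 1, 2 and 3 and higher in dogs 4 and 5. COL12A1 alone went from 0.0436% ± 0.0242 to 0.154% ± 0.057 of the reads, and the other 9 chains from 0.213% ± 0.081 to 0.0575% ± 0.0073. The 3 fibrillar chains took 0.129% ± 0.047 in Pre-ACTH and 0.0300% ± 0.0063 in Post-ACTH, and the 2 collagen VI chains 0.0655% ± 0.0243 and 0.0227% ± 0.0035. The highest single share of all 10 chains was 0.362% (Wilson 95% interval 0.359% to 0.365%), in the Pre-ACTH sample of dog 1, and such intervals cover counting error only. These are shares of reads and are not corrected for transcript length.

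**Figure D3:**
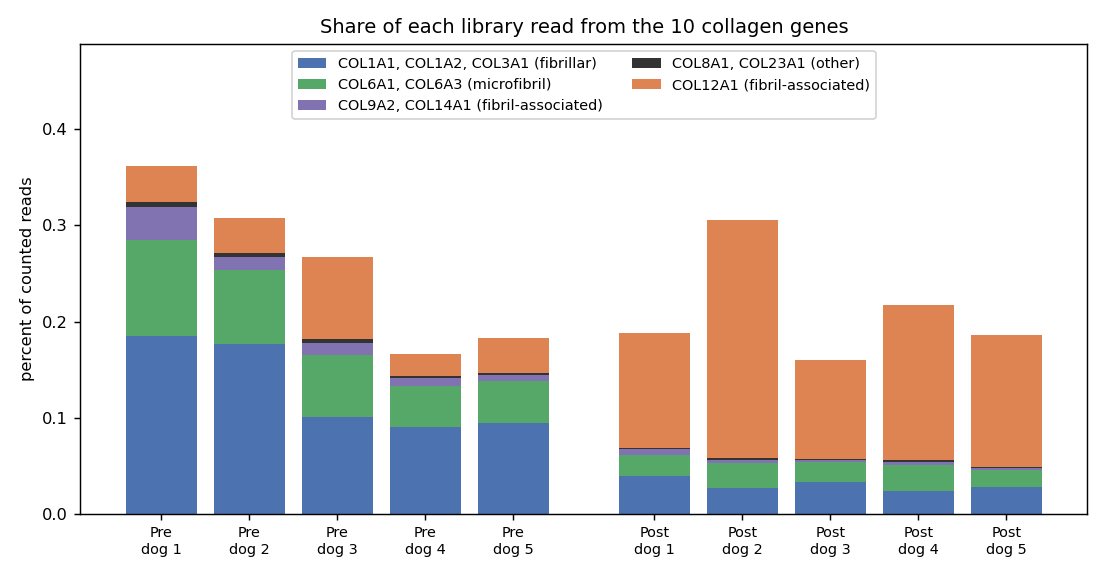
Percent of all counted reads that came from the 10 collagen genes in each library, stacked by class, with COL12A1 drawn apart from the other fibril-associated chains. The COL12A1 share spans 0.0224% to 0.0854% before treatment and 0.102% to 0.248% after it.

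Ratios between chains were also taken within each library, where depth and scaling cancel. They are ratios of reads, not per length, so only their shift between samples is described. Collagen I is assembled from COL1A1 and COL1A2 products. Reads of COL1A1 per read of COL1A2 were 0.168, 0.286, 0.159, 0.201 and 0.371 in Pre-ACTH and 0.289, 0.125, 0.179, 0.389 and 0.195 in Post-ACTH. The ratio was higher after treatment in 3 dogs and lower in 2, with a mean log2 shift of -0.04 ± 0.98 (SD, n = 5). The shifts of single dogs reached -1.20 and 0.95, so the near-equal fold changes of both chains did not come from equal changes within each dog.

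COL3A1 reads are compared with those of both collagen I chains. Reads of COL3A1 per COL1A1 read were 7.42 ± 0.86 in Pre-ACTH, a narrow range from 6.48 to 8.69, and 5.06 ± 2.08 in Post-ACTH, from 2.47 to 8.28. The ratio was lower in 4 dogs and higher in dog 3. Against COL1A2 it was lower in 3 dogs and higher in 2, with a mean log2 shift of -0.69 ± 0.98. COL6A3 reads per COL6A1 read were lower in 4 of 5 dogs, going from 1.87 ± 0.47 to 1.22 ± 0.58, and in dog 5 the log2 shift was 0.02. The widest shift was that of COL12A1 to COL14A1. That ratio was 1.10, 2.93, 7.75, 2.75 and 6.33 in Pre-ACTH and 20.8, 97.1, 54.7, 49.9 and 121 in Post-ACTH, without overlap, and it was higher in all 5 dogs by 4.11 ± 0.81 on the log2 scale. COL12A1 rose and COL14A1 fell in all 5 dogs, so the direction of this shift was given by those changes and adds nothing.

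**Figure D4:**
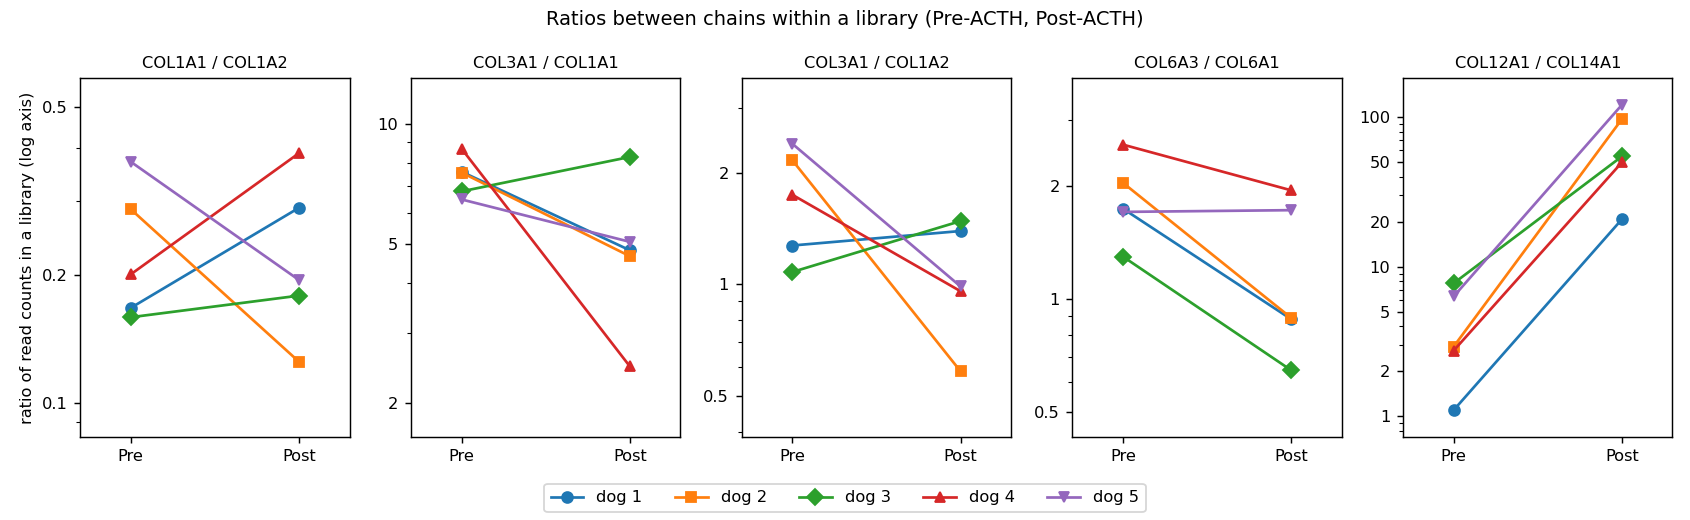
Ratio of the read counts of 2 collagen chains within each library on a log axis, with a line for each dog from Pre-ACTH to Post-ACTH. The lines for COL1A1 to COL1A2 cross in both directions, and those for COL12A1 to COL14A1 rise in all 5 dogs.

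Whether males and females differed in these changes was tested, as sex was not used to choose the chains. The choice is not fully independent of it, however. A strong difference adds to the spread between dogs and makes a chain less likely to be in the table of changed genes. The shares over all tested genes below are therefore not a like comparison. The sex by treatment term of edgeR's quasi-likelihood fit called 0 of the 10 chains at FDR under 0.01, where it called 0% of the tested genes, and 0 of the 10 had an unadjusted p under 0.05, against 3.2% of the tested genes. DESeq2 called 0 of the 10 at FDR under 0.01 and 0.0368% of the tested genes. The largest difference was that of COL1A1, at -0.86 (female minus male, log2; 95% interval -1.99 to 0.27), with mean log2 ratios of -2.23 in females and -1.38 in males. For COL12A1 it was -0.57 (-2.37 to 1.22). For COL23A1, which had the narrowest interval, it was -0.16 (-0.80 to 0.48). With 3 males and 2 females the half-widths of the 95% intervals ran from 0.64 to 1.80. An estimated difference smaller than its half-width cannot be told apart from 0, and a call at FDR under 0.01 needs a larger one.

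Only 2 further collagens have a symbol. COL4A5, a basement membrane chain, fell from 57.9 ± 15.3 to 28.4 ± 6.45 CPM (SD, n = 5) and in all 5 dogs. Its log2 fold change was -1.02 (SE 0.14, edgeR adjusted p = 0.00809). It was not called when dog 2, 3, 4 or 5 was left out, nor without the dog as a block, and it had an unadjusted p under 0.05 in each of these fits. COL7A1, the chain of anchoring fibrils, was at 6.12 ± 1.49 CPM in Pre-ACTH and 12.5 ± 5.27 CPM in Post-ACTH, higher in all 5 dogs, and was called by DESeq2 but not by edgeR (log2 fold change 0.96, SE 0.22). COL5A1, COL5A2, COL5A3, COL6A5, COL6A6, COL8A2, COL9A1 and COL9A3, the other partner chains of the collagens described, carry no symbol here and were not analysed.

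Of a list of 90 genes that make, secrete, process, bind or degrade collagen, 26 (28.9%) have a symbol, all through the study's table of changed genes, so their directions are given by that choice and the list is far from complete. Among the 26, 21 were lower and 5 higher in Post-ACTH, the median of their log2 fold changes was -1.17, and edgeR called 8, 7 lower and 1 higher, where it called 1.97% of the tested genes; DESeq2 called all 26. Since the list was matched through that table, nothing is read from this count. Without dog 2 edgeR called none (all 26 had an unadjusted p under 0.05), whereas it called 1 without dog 3 and 3 without dog 5.

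Among genes of propeptide processing, PCOLCE, which speeds the removal of the C-propeptide from fibrillar procollagens, fell from 23.8 ± 7.65 to 5.04 ± 2.19 CPM (log2 fold change -2.27, SE 0.15). BMP1, the protease that PCOLCE assists, had a log2 fold change of 1.06 (SE 0.29), was higher in 4 dogs and lower in dog 1, and was called by DESeq2 but not by edgeR. DESeq2 called both hydroxylase genes and edgeR neither: PLOD2, a lysyl hydroxylase, had a log2 fold change of -0.52 (SE 0.09) and P4HA2, a prolyl hydroxylase subunit, one of -0.71 (SE 0.14). Of the 2 cross-linking enzymes, LOXL2 was at -1.19 (SE 0.18) and TGM2 at 0.74 (SE 0.19) on the log2 scale, and both were called by DESeq2 only. PREB, which takes part in vesicle export from the endoplasmic reticulum, was at 0.56 (SE 0.10) and was called by DESeq2 only.

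Of 10 fibril-bound proteoglycans and glycoproteins, 9 were lower and 1 higher, and 5 were called. LUM, the proteoglycan lumican that limits the width of fibrils, fell from 124 ± 40.3 to 45.1 ± 18.0 CPM (log2 fold change -1.49, SE 0.11). OGN fell by 1.52 (SE 0.15) and PRELP by 0.99 (SE 0.13) on the log2 scale. FMOD fell by 2.99 (SE 0.40), but rested on 163 reads in all of Pre-ACTH and 22 in all of Post-ACTH. POSTN, periostin, a matrix protein that binds collagen I, rose from 1.03 ± 1.08 to 7.51 ± 7.73 CPM (log2 fold change 2.65, SE 0.37), in all 5 dogs, and its groups overlapped. It rested on 65 reads in all of Pre-ACTH and 494 in all of Post-ACTH.

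All 4 collagen receptors with a symbol were lower and none passed FDR under 0.01 in edgeR (all had an unadjusted p under 0.05, and DESeq2 called all 4). ITGA11, the integrin chain that binds collagen I on fibroblasts, had the lowest p, at 34.5 ± 11.1 CPM in Pre-ACTH and 6.87 ± 4.74 CPM in Post-ACTH. Of 3 genes of collagen turnover, FAP, a protease of activated fibroblasts, fell by 1.38 on the log2 scale (SE 0.18), whereas the gelatinase MMP2 (-1.14, SE 0.23) and the inhibitor TIMP4 (0.84, SE 0.25) were called by DESeq2 only. TGFB3, a TGF-beta ligand, fell by 2.24 (SE 0.34). NR3C1, the glucocorticoid receptor, was at -0.47 (SE 0.09) and was called by DESeq2 only.

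**Figure D5:**
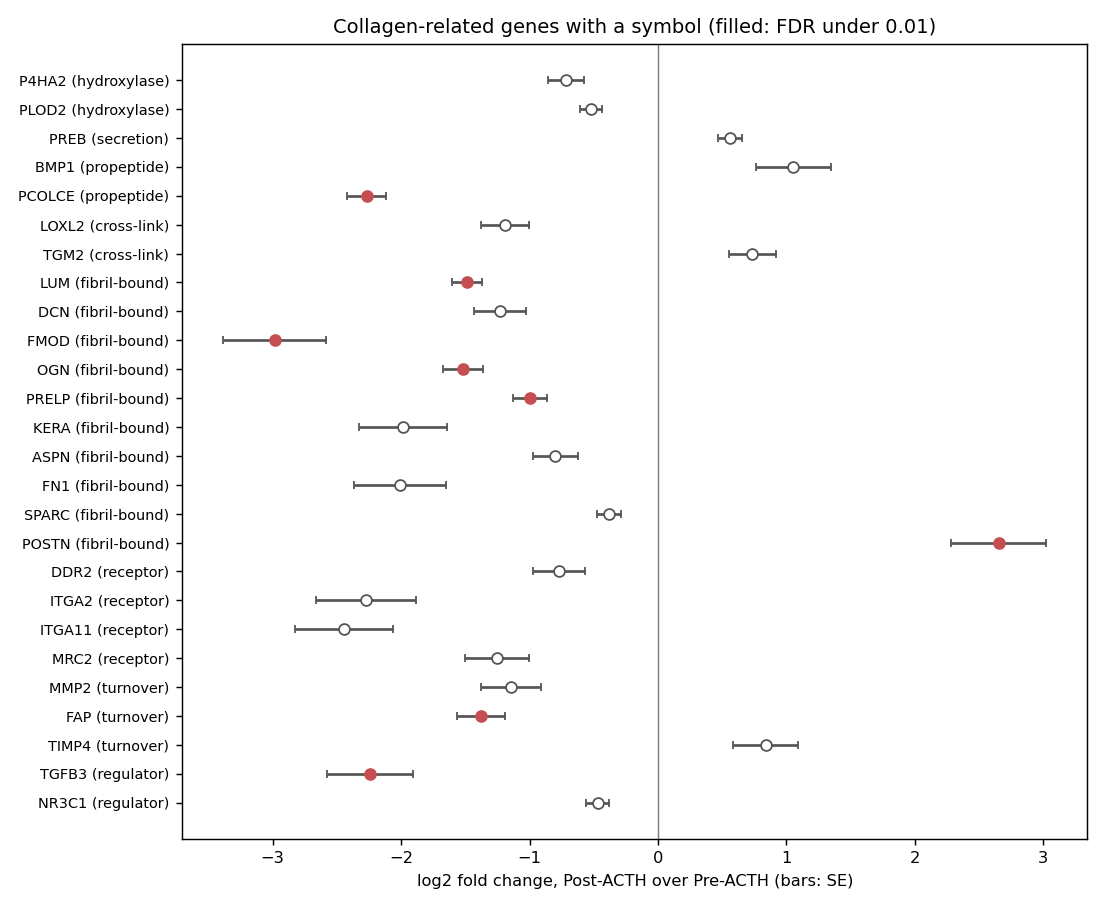
Log2 fold change (Post-ACTH over Pre-ACTH) with SE for the 26 collagen-related genes that have a symbol, ordered by role, with filled points for the 8 called by edgeR at FDR under 0.01. Points to the left of 0 are lower in Post-ACTH, and POSTN is the only filled point to the right.

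In a bulk sample, fewer cells of a type and less RNA per cell cannot be told apart. Of 11 markers of fibroblasts and adipose progenitors, 6 have a symbol, again through the table of changed genes, and all 6 were lower in Post-ACTH. Of these edgeR called 3, against 1.22% of the tested genes called as lower, and DESeq2 called all 6. Their summed level was 289 to 538 CPM in Pre-ACTH and 160 to 233 CPM in Post-ACTH, and it changed by -1.25, -0.88, -1.05, -0.85 and -0.74 on the log2 scale in dogs 1 to 5. PDGFRB, a receptor of fibroblasts and pericytes, fell by 0.74 on the log2 scale (SE 0.07), from 179 ± 23.2 to 106 ± 9.68 CPM. PI16, a marker of adventitial progenitors, fell by 3.30 (SE 0.30), from 36.6 ± 10.7 to 4.00 ± 2.49 CPM, which is a larger change than that of any collagen described. LSAMP was called as lower on 180 reads in all of Pre-ACTH and 1 in all of Post-ACTH. THY1 (-1.55, SE 0.26), FBLN1 (-0.97, SE 0.27) and CD34 (-0.53, SE 0.11) were called by DESeq2 only. The part of these markers in the collagen changes was not tested.

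As a description chosen after the values were seen, each chain was also divided by the summed markers of its own library. The mean log2 shift of this ratio was -1.42 ± 0.88 for COL3A1, -1.24 ± 0.43 for COL14A1, -0.73 ± 0.28 for COL1A2 and -0.30 ± 0.19 for COL23A1 (SD, n = 5). The ratios of these 4 chains were lower in Post-ACTH in all 5 dogs, and below, lower and higher refer to such ratios. COL1A1 (-0.77 ± 0.83) and COL6A3 (-0.80 ± 0.58) were lower in 4 of 5. COL6A1 (-0.09 ± 0.39), COL9A2 (-0.02 ± 0.47) and COL8A1 (-0.02 ± 0.79) were lower in 3 of 5, with means smaller than their spread. COL12A1 was higher in all 5 dogs, by 2.87 ± 0.95. With PDGFRB alone as the divisor, COL6A3 was lower in 5 dogs as well, and COL6A1, COL9A2 and COL8A1 in 4. PDGFRB held 46.1% of the summed CPM in Pre-ACTH and 53.9% in Post-ACTH. The direction depended on the marker, since the markers fell by unlike amounts. Their log2 fold changes were -3.30 for PI16, -1.55 for THY1, -0.97 for FBLN1, -0.74 for PDGFRB and -0.53 for CD34. Relative to PI16, COL3A1 and COL14A1 were higher in 4 of 5 dogs and the other 8 chains in all 5, with mean log2 shifts of 0.99 ± 0.99 for COL3A1 and 1.68 ± 0.87 for COL1A2. Relative to THY1, COL6A1, COL9A2, COL8A1 and COL23A1 had mean shifts above 0. COL12A1 rose in all 5 dogs, while PDGFRB, CD34, THY1, PI16, FBLN1 and the summed markers fell in all 5. Its higher ratio to each of them was given by these directions and adds nothing.

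Markers of other cells moved as well, and their part in the collagen changes was not tested. They too have a symbol only through the table of changed genes. Nothing is therefore read from their having moved or from their DESeq2 calls. LIPE, the adipocyte marker, was higher in all 5 dogs without overlap, at 1726 ± 182 CPM in Pre-ACTH and 2394 ± 167 CPM in Post-ACTH (log2 fold change 0.48, SE 0.11), and was called by DESeq2 but not by edgeR. Of the skeletal muscle list 1 of 5 genes has a symbol, namely the muscle creatine kinase CKM. It rose in all 5 dogs and without overlap, being at 2.77 to 16.4 CPM in Pre-ACTH and at 43.3 to 142 CPM in Post-ACTH. The log2 fold change of CKM was 3.58 (SE 0.26), and edgeR called it as higher. Of 9 smooth muscle and pericyte markers 3 have a symbol, 2 higher and 1 lower, none called by edgeR (all had an unadjusted p under 0.05, and DESeq2 called all 3), and their sum was 61.7 to 125 CPM in Pre-ACTH and 75.3 to 113 CPM in Post-ACTH. Of 10 macrophage markers 2 have one, 1 higher and 1 lower, and neither was called by edgeR (both had an unadjusted p under 0.05, and DESeq2 called both), with sums of 66.0 to 146 CPM and 39.4 to 96.8 CPM. Of 8 T, B and mast cell markers 1 has one, CPA3, which was called as lower and was at 0.469 to 2.07 CPM in Pre-ACTH and 0 to 0.0830 CPM in Post-ACTH. No endothelial, mesothelial or Schwann cell marker of the lists has a symbol here.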

How the data were processed

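RNA-seq counts of VAT from 5 dogs, each sampled Pre-ACTH and Post-ACTH, were analysed. The authors aligned trimmed reads to CanFam3.1 with STAR and deposited raw featureCounts counts per Ensembl gene, 1 table per library; tool versions, annotation release, strand setting and the handling of multi-mapping reads are not given in the sources used here. The labels name a stranded mRNA protocol with reads of 100 bp, whereas the paper describes ribosomal RNA depletion and longer reads.

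A gene needed 10 or more reads in 1 or more samples and was then tested with edgeR 4.0.16 in R 4.3.3 (TMM, glmQLFit and glmQLFTest), with the dog as a block, Benjamini-Hochberg adjustment and FDR under 0.01. For log2 ratios of single dogs, the prior count was 2. Each SE is the log2 fold change over the root of F. The animal IDs give the pairing: deviations from the group means correlated between samples of the same dog at 0.077 to 0.41. The average between different dogs was -0.0678, which is largely fixed by taking deviations from group means and is no independent comparison. None of the 20 pairs of libraries within a group was alike within sampling noise. Alternatives used DESeq2 1.42.0, limma 3.58.1 (voom), other scalings and filters, and fits without each dog. The test was tried on simulated counts.

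The members and lists were chosen with earlier results of these data known. Symbols came from the study's table of changed genes, whose fold changes and p-values were not used; the RefSeq table at hand, of another assembly, holds no Ensembl identifiers. Named are the 10 members, their partner chains, other collagens called, and in each role of the collagen-related list up to 4 called genes with the lowest p (where none was called, the 1 with the lowest p). P4HA2, BMP1, TGM2, MMP2, TIMP4, NR3C1, POSTN, COL7A1 and the markers LIPE, THY1, FBLN1 and CD34 were named after their values were seen. No sequences, coordinates or transcript lengths were used.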

Additional observations from a re-analysis of the deposited data

Results flagged for a closer look

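Over the 10 chains, the Pre-ACTH CPM, the Post-ACTH CPM and the log2 ratios of single dogs were searched for a sample far from the other 4, and 3 of 30 groups of 5 values held one. Chance gives this in about 1 in 20 groups.

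COL12A1 in the Pre-ACTH sample of dog 3 was at 810.2 CPM, against 229.6 to 375 CPM in the other dogs, and this library was also the smallest. COL14A1 in the Pre-ACTH sample of dog 1 was at 341 CPM, against 56.8 to 124 CPM in the others. The COL14A1 log2 ratio of dog 4 was -1.34, against -2.54 to -2.23 in the others. Whether these values are technical was not tested.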

How the results depend on the processing

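None of the 150 log2 fold changes of the 10 chains under 15 alternatives reversed: 118 kept their side of FDR under 0.01, 18 lost the call and 14 gained it. With DESeq2, 1180 genes, 10 of 10 members, 2 of 2 other collagens and 26 of 26 collagen-related genes were called, and at FDR under 0.05 in edgeR 1509, 9, 2 and 24. The listed genes have a symbol only through the study's DESeq2 table of the same samples. Their DESeq2 calls were therefore largely fixed in advance and are no check of the processing. Without a low-count filter 438 genes and 14 collagen-related genes were called. Without the replicate block, edgeR called 262 genes, 6 members, 10 collagen-related genes and 0 of the 2 other collagens (both had an unadjusted p under 0.05), COL14A1 lost its call and COL12A1 and COL1A1 gained one. Leaving out each dog gave 1 to 318 genes, 0 to 7 members, 0 to 1 other collagens and 0 to 8 collagen-related genes, and fewer samples were tested there. In the sex test edgeR and DESeq2 called 0 members under each alternative (0 to 2 had an unadjusted p under 0.05); without dog 2 or dog 3 only 1 female is left, assumed to vary like the males, so these fits say little of stability. Among 20 mean log2 ratios of the members with a prior count of 0.5 or total counts, 20 moved by less than the SD between dogs. Counts per kilobase were not run, since no lengths of this build were used. COL9A2, COL8A1 and COL23A1, with 27 to 443 reads per library, are the least precisely counted members. Dividing by a single marker, added after seeing the data, reversed 4 mean log2 ratios with THY1 (COL6A1 0.49, COL9A2 0.56, COL8A1 0.56, COL23A1 0.28) and 9 with PI16 (COL1A1 1.64, COL1A2 1.68, COL3A1 0.99, COL6A1 2.33, COL6A3 1.61, COL9A2 2.40, COL14A1 1.18, COL8A1 2.39, COL23A1 2.12).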
